A study of Mus musculus with 6 samples.

Results

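The tight-junction genes Cldn3, Cldn4, Cldn6, Cldn7, Cldn10, Cldn15, Cldn18, Ocln, Marveld2 and Tjp1 were examined for H3K27 acetylation in mesothelial and epithelial cells of the fetal mouse lung. The 10 genes were taken by name from 21883 protein-coding genes of the mouse annotation, with earlier results of these data known. The shares over all genes or domains given below are therefore background and not a test of the list. For each gene the domain was its body plus up to 50 kb on each side, cut midway to the next coding gene. Cldn15 was included as a claudin of mesothelium.

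H3K27ac, a histone mark of active promoters and enhancers, was mapped by CUT&RUN, an assay that releases antibody-marked chromatin with a tethered nuclease. The 2 mesothelium libraries, from the flat covering layer of the lung, were made from 25 k (replicate 1) and 100 k sorted cells (replicate 2) (cell numbers as in the titles), with the gate PDPN+EPCAM-CD45-CD31-DAPI-. The 2 epithelium libraries, from the lining of the airways and future alveoli, were made from 100 k (replicate 1) and 200 k cells (replicate 2) with the gate PDPN+EPCAM+CD45-CD31-DAPI-. All came from pooled lungs of litters at E16.5 from Myrf Fl/Fl matings. No Cre driver is named for them, and the series calls the mesothelial cells wild type. The protocol gives 60 k to 100 k sorted cells for the H3K27ac profiles, which differs from the cell numbers in the titles of mesothelium replicate 1 and epithelium replicate 2. Both gates required podoplanin, so epithelial cells without it are not represented. Separate pools of lungs are not stated for the replicates, so a p-value here reflects library-to-library spread that may be technical.

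Tight junctions seal the space between neighbouring epithelial cells. Claudins span the membrane and set which ions pass; the barrier-forming and the pore-forming claudins differ in this. Occludin (Ocln) and tricellulin (Marveld2) belong to the MARVEL proteins, tricellulin sitting where 3 cells meet, and ZO-1 (Tjp1) is the cytoplasmic scaffold that ties the strands to actin. In the lung, Cldn18 is the main claudin of alveolar type I cells, and Cldn3, Cldn4 and Cldn7 are claudins of lung epithelium.

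The values are kilobases under the deposited broad peaks of each library, which were called per library. The lists held 39010 and 41532 peaks in mesothelium and 47873 and 46633 peaks in epithelium, and those used covered 35.7 and 39.8 Mb in mesothelium and 44.4 and 41.4 Mb in epithelium. Read depth is unknown, because a peak list holds no counts. Longer length may reflect a larger share of cells carrying the mark or more of the mark per cell, and the 2 cannot be told apart in bulk cells. The sorted identities were checked on marker lists. The summed length over 10 mesothelial markers was 30.8 and 60.0 kb in mesothelium against 8.63 and 15.0 kb in epithelium. Wt1, Upk1b, Muc16, Gpm6a and Bnc1, 5 of 9 tested, were longer in mesothelium. In contrast, Msln had 0.544 and 0.893 kb in mesothelium against 1.19 and 4.29 kb in epithelium. Krt8 had 0.909 and 1.13 kb in mesothelium against 3.19 and 5.48 kb in epithelium, and neither difference passed. Krt19 overlapped between the cell types. The sum over 10 lung epithelial markers was 28.7 and 8.67 kb in mesothelium against 134.4 and 155.2 kb in epithelium; Nkx2-1, Cdh1, Sftpb, Foxa2 and Grhl2, 5 of 8 tested, were longer in epithelium. Fibroblast markers summed to 22.8 and 27.4 kb in mesothelium against 8.16 and 4.30 kb in epithelium, and 1 of 7 tested, Col3a1, was longer in mesothelium. Endothelial markers summed to 14.1 and 11.5 kb in mesothelium against 4.803 and 7.92 kb in epithelium; Kdr and Tek, 2 of 5 tested, were longer in mesothelium, whereas Cdh5, Erg and Prox1 had more length in both epithelium libraries, and Cdh5, the endothelial cadherin, and Erg had no peak in mesothelium. Immune markers summed to 1.11 and 0.366 kb in mesothelium against 0.530 and 1.74 kb in epithelium. The leukocyte gene Ptprc had acetylated length in epithelium replicate 2 alone (0.979 kb). The libraries of both cell types thus carried some peaks at genes of other cell types, and the part of such cells in the results was not tested.

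The promoters that the results turn on are shown. They differ in whether a peak reached them, apart from the upstream Cldn18 window, which no peak reached in any library. Cldn4, Cldn7, Cldn18, Ocln and Marveld2 had a promoter peak in both epithelium libraries and in neither mesothelium library, and Cldn15 had a peak over its start in both mesothelium libraries. Each RefSeq window (GRCm38.p6, which is mm10) runs 5′ to 3′ from 250 bases before the transcription start to 50 bases from it onward. Capitals mark matches to the motifs searched.
Cldn15, chr5:136967619-136967918, plus strand: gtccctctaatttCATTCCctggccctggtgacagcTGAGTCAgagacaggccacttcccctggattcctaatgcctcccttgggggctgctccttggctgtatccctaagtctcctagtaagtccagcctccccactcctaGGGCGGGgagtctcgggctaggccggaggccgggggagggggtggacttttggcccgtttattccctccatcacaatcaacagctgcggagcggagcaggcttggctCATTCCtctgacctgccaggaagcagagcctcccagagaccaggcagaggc
Cldn18 upstream start, chr9:99717218-99717517, minus strand: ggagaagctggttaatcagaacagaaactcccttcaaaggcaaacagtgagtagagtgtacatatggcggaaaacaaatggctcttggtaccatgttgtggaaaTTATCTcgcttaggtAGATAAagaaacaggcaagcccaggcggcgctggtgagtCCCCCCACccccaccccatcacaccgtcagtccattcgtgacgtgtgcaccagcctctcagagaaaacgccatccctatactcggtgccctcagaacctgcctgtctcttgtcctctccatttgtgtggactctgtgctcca
Cldn18 internal start, chr9:99710014-99710313, minus strand: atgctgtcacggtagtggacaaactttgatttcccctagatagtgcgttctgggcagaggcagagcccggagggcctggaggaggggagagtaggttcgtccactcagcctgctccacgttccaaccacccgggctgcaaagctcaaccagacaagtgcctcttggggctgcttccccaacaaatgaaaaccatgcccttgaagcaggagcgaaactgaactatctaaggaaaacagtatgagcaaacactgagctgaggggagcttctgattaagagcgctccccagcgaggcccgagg
Cldn4, chr5:134946885-134947184, minus strand: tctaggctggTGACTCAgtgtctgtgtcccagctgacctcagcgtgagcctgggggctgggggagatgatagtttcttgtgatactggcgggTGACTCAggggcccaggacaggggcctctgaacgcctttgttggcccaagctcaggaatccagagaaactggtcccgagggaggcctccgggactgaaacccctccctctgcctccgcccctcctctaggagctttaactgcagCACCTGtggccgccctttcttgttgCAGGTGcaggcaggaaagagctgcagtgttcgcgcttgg
Cldn7 downstream start, chr11:69965171-69965470, plus strand: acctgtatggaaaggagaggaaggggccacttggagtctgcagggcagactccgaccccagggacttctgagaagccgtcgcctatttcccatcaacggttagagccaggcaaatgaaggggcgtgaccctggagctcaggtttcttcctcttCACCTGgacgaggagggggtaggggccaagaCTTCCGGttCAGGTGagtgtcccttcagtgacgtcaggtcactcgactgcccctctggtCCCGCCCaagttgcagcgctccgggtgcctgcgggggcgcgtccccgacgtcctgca
Ocln downstream start, chr13:100552449-100552748, minus strand: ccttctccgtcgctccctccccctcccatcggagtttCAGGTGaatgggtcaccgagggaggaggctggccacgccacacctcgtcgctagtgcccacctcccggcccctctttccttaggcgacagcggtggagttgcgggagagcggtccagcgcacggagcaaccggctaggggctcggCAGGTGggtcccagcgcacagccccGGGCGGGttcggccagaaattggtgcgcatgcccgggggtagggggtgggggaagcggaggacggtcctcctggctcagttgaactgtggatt
Marveld2 downstream start, chr13:100616895-100617194, minus strand: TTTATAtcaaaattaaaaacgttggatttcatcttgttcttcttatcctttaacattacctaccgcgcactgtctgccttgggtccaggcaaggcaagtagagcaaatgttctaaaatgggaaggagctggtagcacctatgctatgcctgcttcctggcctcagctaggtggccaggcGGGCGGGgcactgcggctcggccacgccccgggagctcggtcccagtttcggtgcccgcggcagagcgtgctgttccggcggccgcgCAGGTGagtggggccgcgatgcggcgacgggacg

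All 10 genes had a RefSeq window, 15 windows in all, of which those of Ocln and those of Marveld2 overlap each other. The windows were searched on both strands for the letters of 11 motifs, which can overlap, as GTGGGNGG and GGGCGGG do. The WT1 letters GTGGGNGG were in 15.8% of all 32851 windows and in those of Cldn18 and Cldn10. The AP-1 letters TGANTCA, in 7.81% of all windows, occurred in Cldn15 and at 2 places in Cldn4. The TEAD letters GGAATG (14.7% of all windows) occurred in Cldn15, Cldn6 and Cldn7, and the ETS letters CCGGAAG (8.86%) in Cldn7. The GRHL letters AACCNGTT (2.09%) and the FOXA letters TGTTTAC (3.65%) were in no window of the 10 genes, and the NKX2-1 letters CACTTGA (3.06%) were in the downstream Cldn10 window. The E-box CACCTG (20.2%) was present in 8 of the 15 windows, the KLF/SP letters GGGCGGG (25.6%) in 9, the GATA letters AGATAA (11.2%) in 2 and the TATA letters TATAAA (13.6%) in 2, both of Marveld2. The internal Cldn18 window held none of the 11.

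Over all 10 domains, the mesothelium libraries had 19 and 16 peaks, covering 21.3 and 15.6 kb, and the epithelium libraries had 48 and 52 peaks, covering 77.2 and 69.5 kb. Most of the mesothelial length lay in the long Tjp1 domain. Without Tjp1, the members held 4.75 and 3.94 kb in mesothelium against 50.7 and 49.9 kb in epithelium. Of 10 genes, 7 had more acetylated length in both epithelium libraries than in either mesothelium library, and 1, Cldn15, had more in both mesothelium libraries. For comparison, 25.5% of the tested domains had the first pattern and 22.4% the second. These shares leave out untested domains, whereas the 10 genes include Cldn6 and Cldn7, which were not tested. The domains of 8 of the 10 genes passed the filter of a mean of 0.5 kb and were tested with limma over 10480 domains. Acetylated length was longer in epithelium for 4 of them, Cldn18, Ocln, Cldn10 and Cldn3 (Benjamini-Hochberg adjusted p under 0.05), and longer in mesothelium for 0, whereas 5 of 8 had an unadjusted p under 0.05, as 1859 of all 10480 tested domains did. Across all tested domains, 2.53% were longer in epithelium and 1.39% were longer in mesothelium, 3.92% in all. All 4 calls were lost when peaks had to reach a −log10 q of 2 or a width of 1 kb, and when 0.1 kb was added in place of 0.5 kb, settings under which 0, 0 and 4 of all domains passed. Under the same settings, in that order, the log2 difference was -3.80, -5.12 and -4.95 for Cldn18 and -3.03, -3.87 and -5.35 for Ocln. The median log2 difference of the 8 tested members was -2.45, against 0.03 over all tested domains.

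**Figure D1:**
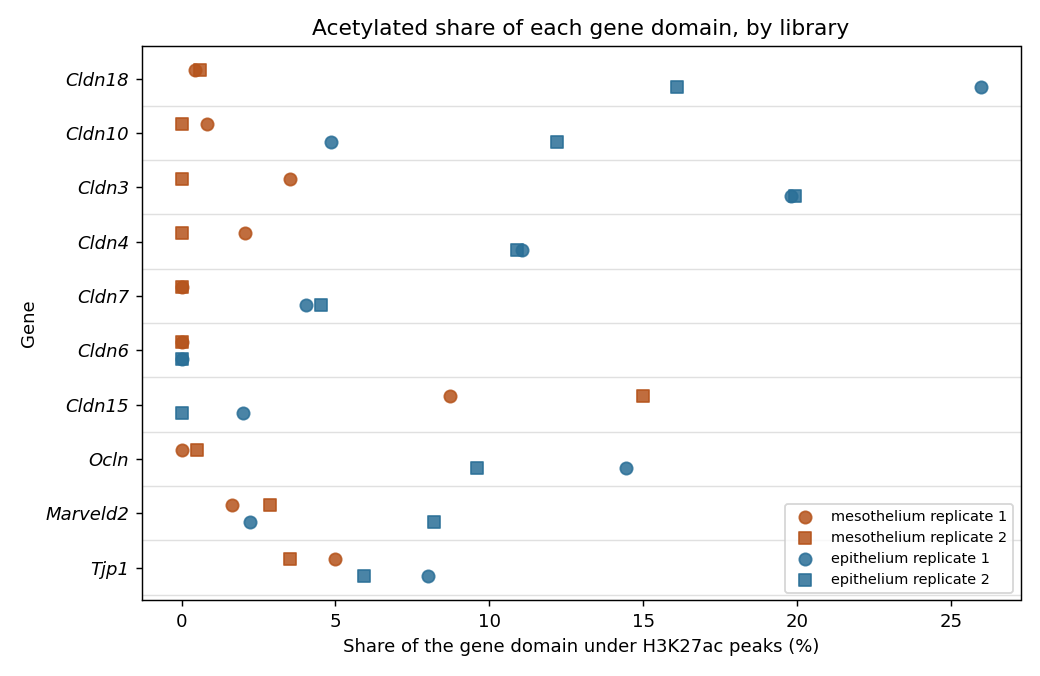
Share of each gene domain under H3K27ac peaks (%, horizontal axis) for the 10 genes, with 1 point per library (circle, replicate 1; square, replicate 2; mesothelium drawn above epithelium). Cldn18 and Cldn3 lie farthest right in epithelium, at 16.1% or more, and Cldn15 lies farthest right in mesothelium, at 8.73% and 15.0%.

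The domains differ in length, so levels were compared between genes as the share of the domain under peaks. In mesothelium, Cldn15 stood highest (8.73% and 15.0%). Tjp1 (4.98% and 3.51%), Marveld2 (1.62% and 2.86%), Cldn3 (3.52% and 0%) and Cldn4 (2.07% and 0%) came next, and each of them overlapped at least 1 other of the 4. Cldn3 and Cldn4, with 0% in replicate 2, also overlapped Cldn18, Cldn10 and Ocln, so their place above these rests on replicate 1. The shares of Cldn18 (0.435% and 0.612%), Cldn10 (0.826% and 0%) and Ocln (0% and 0.488%) overlapped one another in mesothelium, and Cldn6 and Cldn7 had no peak there. In epithelium, Cldn18 (25.9% and 16.1%) and Cldn3 (19.8% and 19.9%) overlapped at the top and lay above the other 8 genes. Ocln (14.4% and 9.58%), Cldn4 (11.1% and 10.9%) and Cldn10 (4.85% and 12.2%) overlapped below them. Tjp1 (8.01% and 5.91%), Marveld2 (2.23% and 8.20%) and Cldn7 (4.04% and 4.53%) were lower still, and neighbours in this order overlapped.

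Cldn18 (chr9:99690796-99717267, minus strand), the claudin of alveolar type I cells, had the lowest adjusted p of the members. Its domain held 0.378 and 0.531 kb in mesothelium against 22.5 and 14.0 kb in epithelium. The 1 peak of each mesothelium library lay at a different place, and the epithelium libraries had 8 and 7 peaks. The log2 difference, mesothelium minus epithelium, was -4.20 ± 0.58 (SE, n = 2 libraries each; limma adjusted p = 0.000328). RefSeq gives Cldn18 2 transcription starts, the internal one 7.204 kb downstream of the upstream one; the lung and stomach forms of claudin-18 are known to begin at different first exons. The epithelial promoter peaks covered the internal start, running from 0.812 to 7.78 kb downstream of the gene's 5′ end in replicate 1 and from 6.72 to 10.6 kb in replicate 2. No peak in any library covered the upstream start itself, although epithelial peaks began 0.812 kb (replicate 1) and 1.00 kb (replicate 2) downstream of it. Upstream of the gene, 2 further regions, chr9:99724251-99726919 and chr9:99727974-99729808, were shared by the epithelium libraries alone. Distal length was 0.378 and 0.531 kb in mesothelium against 15.6 and 10.1 kb in epithelium, a log2 difference of -3.61 ± 0.63 (adjusted p = 0.00599 over 7996 domains with limma).

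Cldn10 (chr14:118787871-118874525, plus strand) encodes a claudin whose isoforms differ in ion selectivity. Its domain held 1.05 and 0 kb in mesothelium against 6.17 and 15.5 kb in epithelium. The log2 difference was -3.49 ± 0.71 (SE; limma adjusted p = 0.00695). Of its peaks, 1 epithelial peak of 5.60 kb, in replicate 2, came within 1 kb of a tabled start and ended 576 bases before the downstream one. No library had a peak within 1 kb of the upstream start. The epithelium libraries shared 3 distal regions without a mesothelial peak. They lay 26465 and 17565 bases upstream and 9433 bases downstream of the second start, all within the gene. The single mesothelial peak, in replicate 1, lay 2.33 kb before that start, inside an interval that both epithelium libraries also covered. Distal length was 1.05 and 0 kb in mesothelium against 6.17 and 9.89 kb in epithelium, a log2 difference of -3.08 ± 0.74 (limma adjusted p = 0.0329). The call on total length was lost without epithelium replicate 2 (adjusted p = 0.126).

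Cldn3 and Cldn4 are neighbours on chromosome 5, 39.3 kb apart and on opposite strands, and both encode claudins that tighten epithelial layers. The Cldn3 domain (gene at chr5:134986214-134987476, plus strand) held 1.12 and 0 kb in mesothelium against 6.28 and 6.33 kb in epithelium. Its log2 difference was -2.86 ± 0.72 (SE; limma adjusted p = 0.0256), and the call was lost without mesothelium replicate 2 (adjusted p = 0.111), without epithelium replicate 1 (0.111) or without epithelium replicate 2 (0.126). Peaks over the Cldn3 start had 1.21 and 5.49 kb in epithelium, and a mesothelial peak of 0.557 kb lay 254 bases downstream of the start in replicate 1. The Cldn4 domain (gene at chr5:134945123-134946934, minus strand) held 0.469 and 0 kb in mesothelium against 2.51 and 2.47 kb in epithelium. Its groups did not overlap, but the log2 difference of -2.04 ± 0.78 did not pass (SE; limma adjusted p = 0.159). Both epithelium libraries had a peak over the Cldn4 start, of 1.83 and 1.80 kb, and the mesothelium libraries had none. The mesothelial peaks of Cldn3, Cldn4 and Cldn10 were all in replicate 1. That library had more length than mesothelium replicate 2 at 6 of the 10 epithelial markers, among them Foxa2 (5.85 against 0.417 kb) and Grhl2 (6.48 against 0.683 kb). It had less at 2, Epcam (0.685 against 1.02 kb) and Hopx (2.44 against 4.50 kb), and Sftpc and Ager had no peak in either. The part of epithelial cells in these peaks was not tested. Without mesothelium replicate 1, the log2 difference of Cldn3 was -3.76 (adjusted p = 0.00123) and that of Cldn10 was -4.36 (adjusted p = 4.94e-05).

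**Figure D2:**
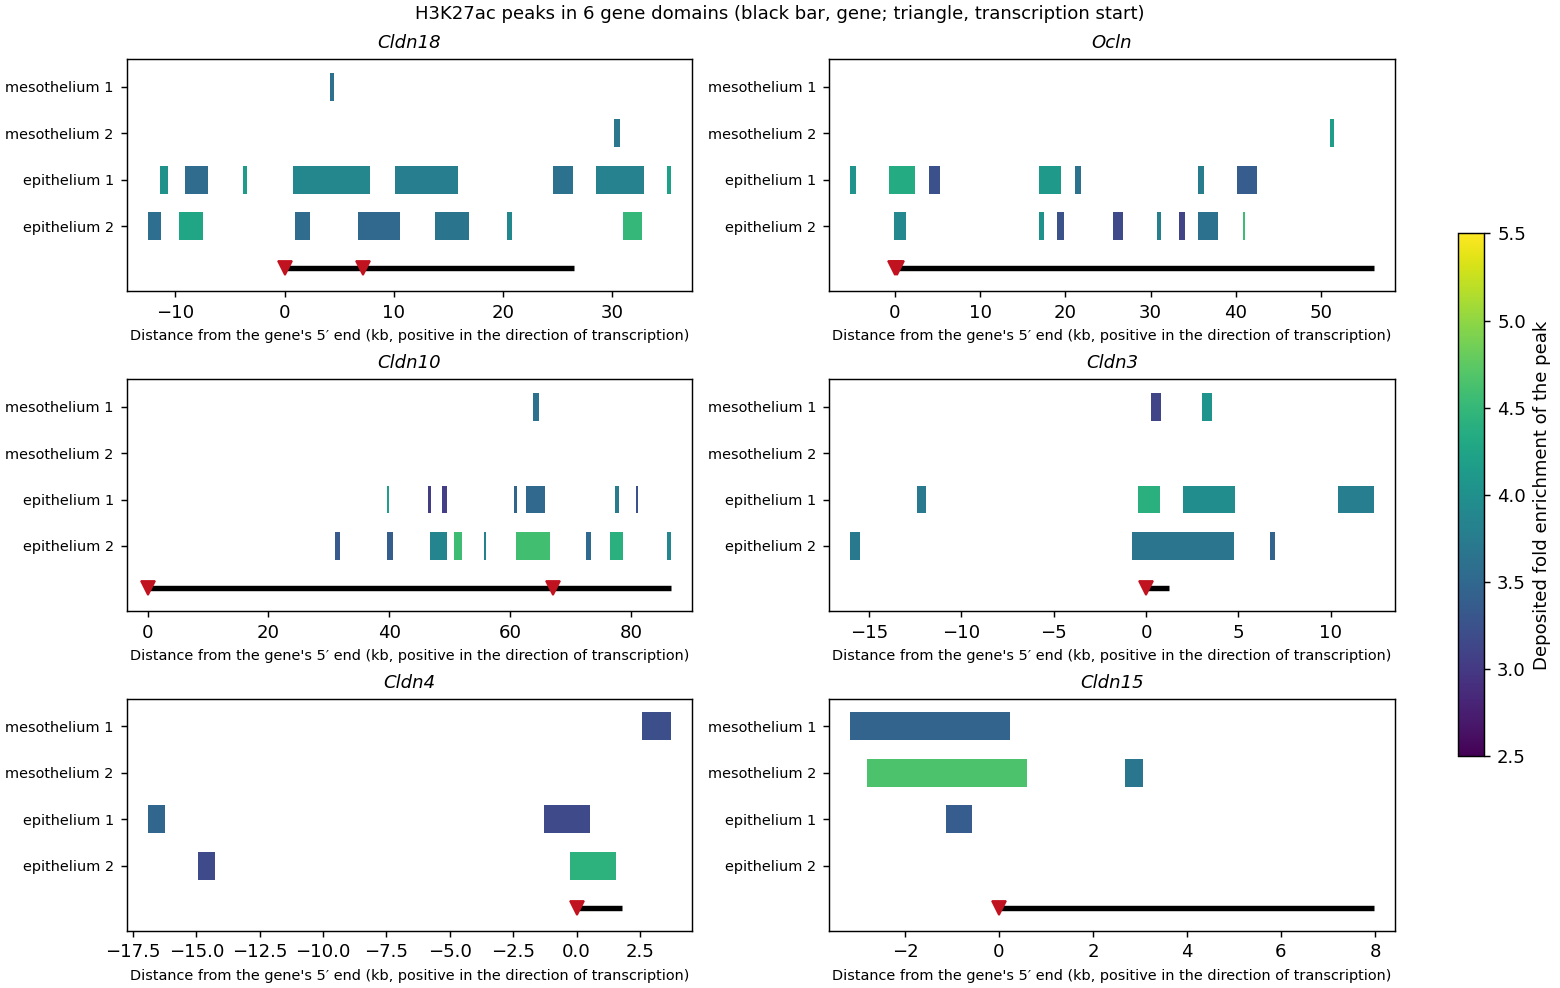
H3K27ac peaks of the 2 mesothelium libraries (upper rows) and the 2 epithelium libraries (lower rows) in 6 gene domains, against distance from the gene's 5′ end (kb, positive in the direction of transcription). The black bar is the gene, the triangles are tabled starts and the colour is the deposited fold enrichment. Most peaks in the Cldn18 and Ocln panels are epithelial, and the Cldn15 start is covered in mesothelium.

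Cldn7 (chr11:69964779-69967886, plus strand) is a claudin of basolateral as well as junctional membrane. It had no peak in mesothelium and 0.467 and 0.523 kb in epithelium, all of it at the promoter. The 2 epithelial peaks covered different starts, the downstream one in replicate 1 and the upstream one in replicate 2. Its mean length was below the filter, so it was not tested. Elp5 lies 337 bases beyond Cldn7, which leaves little sequence on that side. Cldn6 (chr17:23679348-23682446, plus strand), an embryonic claudin, had no peak in any library, but its domain is 4.12 kb long because Cldn9 lies 137 bases away.

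Cldn15 (chr5:136967869-136975845, plus strand), a cation-pore-forming claudin that is known from the intestine, was the 1 member with more acetylated length in both mesothelium libraries. The domain held 1.05 and 1.80 kb in mesothelium against 0.240 and 0 kb in epithelium. The groups did not overlap, but the log2 difference of 1.69 ± 0.84 did not pass (SE, n = 2 each; limma adjusted p = 0.301). Both mesothelium libraries had a broad peak across the start, 3.40 kb wide in each, from -3.17 to 0.227 kb relative to the start in replicate 1 and from -2.81 to 0.587 kb in replicate 2. The authors' fold enrichment for these peaks was 3.46 in replicate 1 and 4.65 in replicate 2. In epithelium, a peak of 0.544 kb in replicate 1 ended 578 bases before the start, and replicate 2 had none. Both peaks reached into Fis1, which ends 1.63 kb upstream, so much of each lay outside the Cldn15 domain, and 1.05 and 1.41 kb of it was counted. Promoter length was thus 1.05 and 1.41 kb in mesothelium against 0.240 and 0 kb in epithelium, with a log2 difference of 1.34 ± 0.65 (limma adjusted p = 0.650). A further mesothelial peak of 0.390 kb, 2.68 kb into the gene, was seen in replicate 2.

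With a promoter window of 0.5 kb in place of 1 kb, the epithelial peak no longer counted, and Cldn15 had a promoter peak in both mesothelium libraries and in neither epithelium library. The call on its total length did not pass in any of 14 alternatives, in which the log2 difference ran between 1.15 and 3.07 and the adjusted p between 0.133 and 0.581.

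Ocln (chr13:100496504-100552718, minus strand) encodes occludin, the MARVEL protein of bicellular junctions. Its domain held 0 and 0.389 kb in mesothelium against 11.5 and 7.64 kb in epithelium. The log2 difference was -3.83 ± 0.67 (SE; limma adjusted p = 0.00179). Epithelial peaks of 3.13 and 1.47 kb covered its starts, where mesothelium had none. The epithelium libraries shared 3 further regions without a mesothelial peak, all within the gene and 16692, 35336 and 39911 bases from the downstream start at their nearest. Distal length was 0 and 0.389 kb in mesothelium against 8.38 and 6.17 kb in epithelium, a log2 difference of -3.36 ± 0.73 (limma adjusted p = 0.0198).

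Marveld2 (chr13:100595957-100616971, minus strand), the tricellulin gene, lies 43.2 kb from Ocln. Its domain held 0.694 and 1.22 kb in mesothelium against 0.952 and 3.502 kb in epithelium, and the ranges overlapped. The log2 difference was -0.69 ± 0.75 (SE; limma adjusted p = 0.687). Its promoter and its distal peaks differed in pattern. Peaks over the start had 0.558 and 0.641 kb in epithelium, and mesothelium had none (log2 difference -1.29 ± 0.72, limma adjusted p = 0.692). About 22.6 to 23.9 kb downstream of the start, in contrast, both mesothelium libraries and epithelium replicate 2 had a peak. Epithelium replicate 1 had a peak of 0.394 kb close by, 24.1 to 24.5 kb downstream. Rad17 lies on the same strand, with its downstream end 192 bases from Marveld2. The promoter peak of epithelium replicate 2 ran into Rad17, and the 0.641 kb inside the Marveld2 domain was counted.

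Tjp1 (chr7:65296165-65527850, minus strand), the gene of the scaffold ZO-1, which also serves other junctions, had peaks in every library. Its domain held 16.51 and 11.6 kb in mesothelium against 26.6 and 19.6 kb in epithelium. The epithelial values lay above the mesothelial ones, but the log2 difference of -0.64 ± 0.35 did not pass (SE; limma adjusted p = 0.344). Of the 35 regions in this domain, 3 were acetylated in all 4 libraries, and no other member had such a region. The tabled start lies within the gene, 156.6 kb from its 5′ end, and was covered by a peak of 2.18 kb in mesothelium replicate 2 and of 5.39 kb in epithelium replicate 2. Peaks of mesothelium replicate 1 and epithelium replicate 1 ended 1.11 and 1.14 kb from it, just outside the promoter window.

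**Figure D3:**
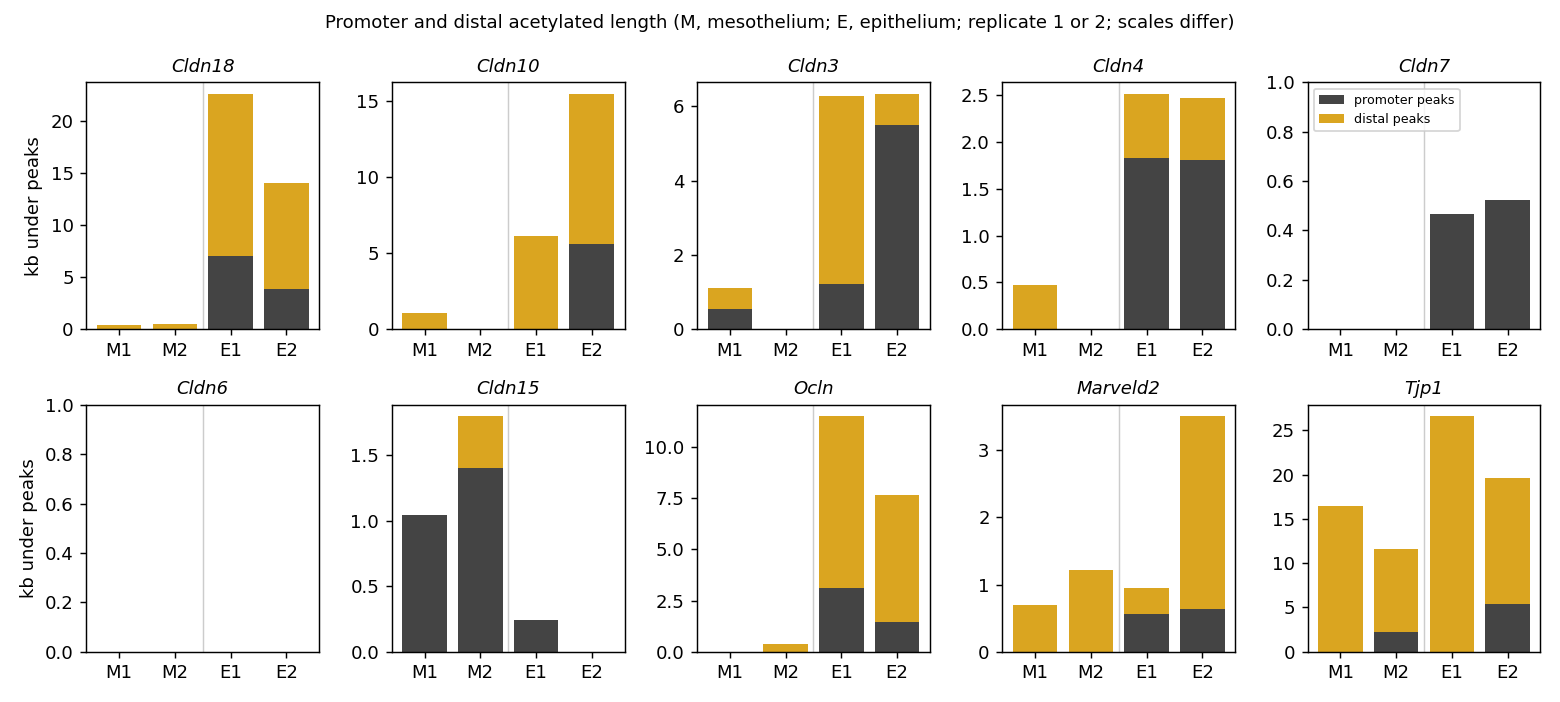
Acetylated length (kb) at promoters (dark) and distal sites (yellow) of the 10 genes in mesothelium replicates 1 and 2 (M1, M2) and epithelium replicates 1 and 2 (E1, E2), on scales that differ between panels. Promoter length is absent from mesothelium for Cldn4, Cldn7, Cldn10, Cldn18, Ocln and Marveld2, and Cldn15 has more of it in mesothelium.

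Promoter peaks were present in epithelium but not in mesothelium for 5 of the 10 genes, with both epithelium libraries positive, and the reverse held for 0. Of 17491 coding genes with a tabled start, 1.65% had the first pattern and 2.81% the second, 53.3% had no promoter peak in any library, as Cldn6 did, and 6.48% had one in 1 library of each cell type, as Tjp1 did. Mesothelium replicates 1 and 2 each had a promoter peak at 2 members, and epithelium replicates 1 and 2 at 7 and 8 members. Over all coding genes, 25.7% and 33.4% had a promoter peak in mesothelium and 26.4% and 26.5% in epithelium. In the limma fit of promoter length 0 of 7239 tested domains passed in either direction (0.0%), and 604 had an unadjusted p under 0.05; 8 members were tested, 0 passed and Cldn3, Cldn4, Cldn18 and Ocln were among the 604. Distal length passed for 3 of 6 tested members, Cldn18, Ocln and Cldn10, all longer in epithelium, against 1.8% of the 7996 tested domains longer in epithelium and 1.29% longer in mesothelium (3.09% in all). Distal length was greater in both epithelium libraries than in either mesothelium library for 5 of the 10 genes and the reverse held for 0, against 30.0% and 19.1% of the tested domains. For promoter length the counts were 6 and 1 of the 10 genes, against 11.9% and 23.9% of the tested domains. These shares leave out untested domains, whereas the 10 genes include members that were not tested for promoter or distal length. The 3 distal calls were each lost without epithelium replicate 1 and without epithelium replicate 2, when 0 domains passed at all. Promoter peaks made up 7.54% and 23.0% of the members' acetylated length in mesothelium and 18.7% and 35.7% in epithelium, against 20.1% and 25.9% in mesothelium and 17.3% and 17.9% in epithelium over all coding genes. Without Tjp1 the members' shares were 33.7% and 35.7% in mesothelium and 28.4% and 38.9% in epithelium, which overlapped.

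**Figure D4:**
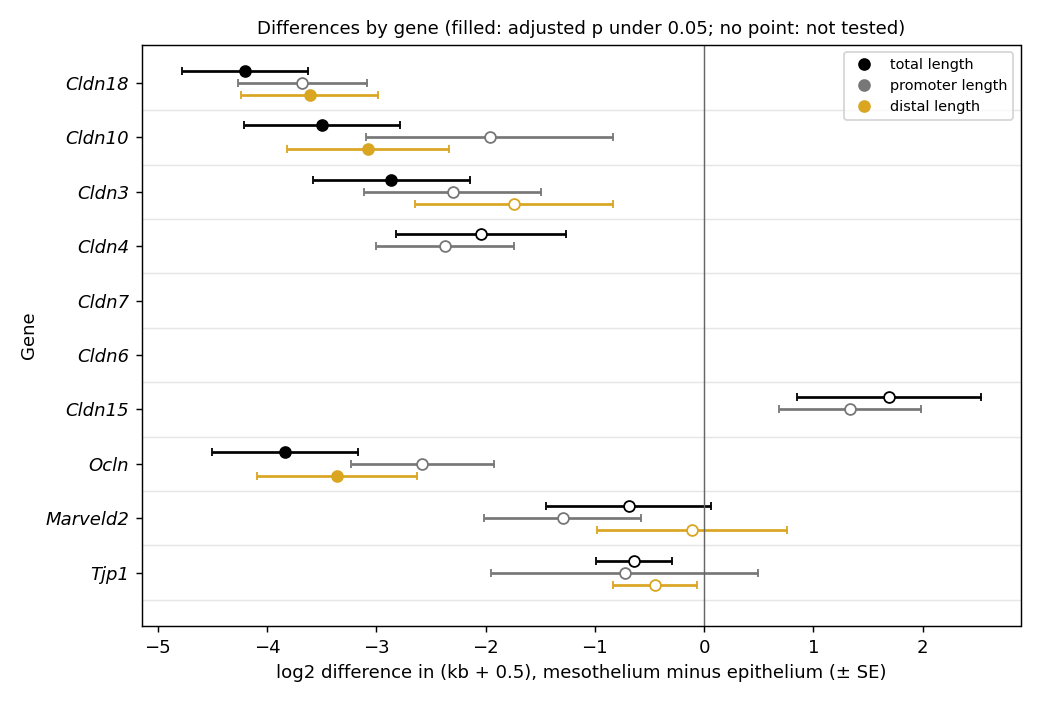
Log2 difference in kb + 0.5, mesothelium minus epithelium, for total, promoter and distal length of each gene (points, estimate; bars, SE from limma on 2 libraries each). Filled points have an adjusted p under 0.05, all of them total or distal lengths below 0, and Cldn15 lies above 0.

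Merging the peaks that overlapped between libraries gave 81 regions across the domains of the 10 genes. Both epithelium libraries and neither mesothelium library had a peak in 13 of them (16.0%), of which 9 were distal. In all domains 3.52% of 104812 regions had this pattern. The reverse pattern held for 0 regions, against 2.95% in all domains. A further 42 regions (51.9%) were seen in 1 epithelium library and 12 (14.8%) in 1 mesothelium library, against 42.5% and 35.3% of the regions in all domains.

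Of 17 other claudins matched to the annotation, Cldn1 was the 1 tested. Cldn1, a barrier claudin known from the epidermis, held 1.58 and 2.18 kb in mesothelium against 0.642 and 0.341 kb in epithelium, a log2 difference of 1.33 (limma adjusted p = 0.368). Cldn12 had a promoter peak in both mesothelium libraries and in neither epithelium library, of 1.14 and 0.781 kb in mesothelium. The 17 genes together held 5.65 and 4.96 kb in mesothelium against 2.59 and 1.44 kb in epithelium.

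Of 30 other junction and polarity genes, 26 were tested, 1 was longer in mesothelium and 1 was longer in epithelium; over all tested domains the shares were 1.39% and 2.53%. Mpdz, which encodes the multi-PDZ junction scaffold MUPP1, held 27.8 and 26.4 kb in mesothelium against 5.76 and 4.45 kb in epithelium, a log2 difference of 2.37 ± 0.39 (limma adjusted p = 0.00116). Pard6b, a subunit of the PAR polarity complex, held 2.00 and 2.24 kb in mesothelium against 12.5 and 10.4 kb in epithelium, a log2 difference of -2.12 ± 0.52 (limma adjusted p = 0.0221). Among the genes of this list, the next smallest adjusted p-values were 0.0894 for Pard3 (13.0 and 16.9 kb in mesothelium, 28.1 and 33.8 kb in epithelium) and 0.196 for Crb3 (0 and 0 kb in mesothelium, 1.30 and 2.17 kb in epithelium). Promoter peaks were present in both epithelium libraries alone for Tjp3 and Crb3, and in both mesothelium libraries alone for Mpdz. The median log2 difference of the 26 genes was -0.23, with 17 below 0.

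**Figure D5:**
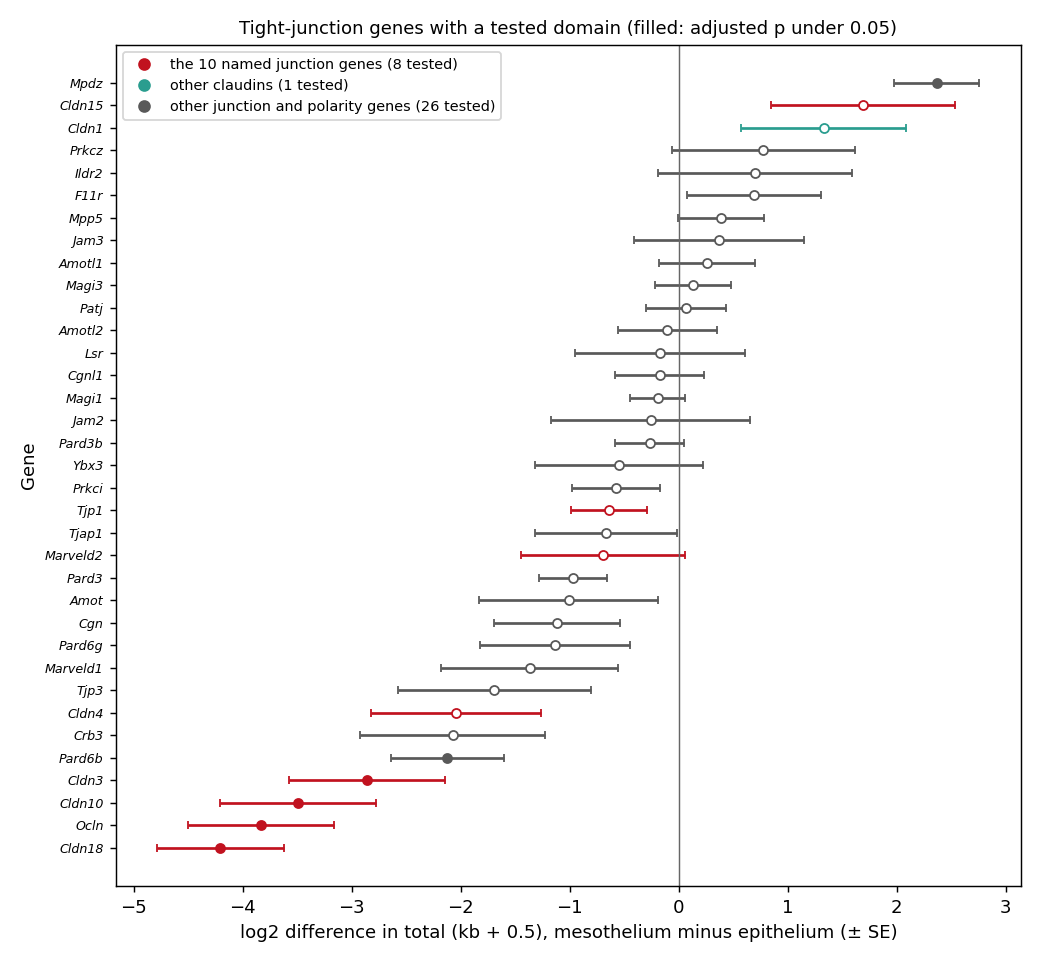
Log2 difference in total kb + 0.5, mesothelium minus epithelium, with SE, for 35 tested tight-junction genes, coloured by list. Filled points have an adjusted p under 0.05: Mpdz lies at the upper end above 0, and Pard6b, Cldn3, Cldn10, Ocln and Cldn18 lie below 0.

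Among all tested coding genes, those nearest to Cldn15 over the 4 centred log2 lengths were 4931414P19Rik and Slc30a1, at Euclidean distances of 0.28 and 0.29. Those nearest to Cldn18 were Gm8909 (distance 0.64) and Hmga2 (0.93). Hmga2 held 0.815 and 1.05 kb in mesothelium against 17.5 and 11.9 kb in epithelium. With 4 libraries, these are descriptions of likeness in length only.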

How the data were processed

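H3K27ac was mapped by CUT&RUN with a commercial kit on sorted cells, per the labels' protocols. Among the tools in the submitters' processing notes are MACS2 2.2.9.1, Bowtie2 2.5.3, bedtools 2.31.1, HOMER, edgeR, DiffBind 3.6.5, cutadapt 4.8, deepTools 3.5.5 and FastQC, with the build mm10. Their order, the peak threshold and any control library were not given in the sources used here. The deposited lists hold 1 set of broad peaks per library, with a score, a fold enrichment ratio, and −log10 p and −log10 q values for each peak. The score (10 times −log10 q, whole part) was not used, the deposited fold was used to describe peaks and the deposited −log10 q as an alternative filter. The 2 IgG libraries were not analysed here.

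Kilobases under peaks were summed in each domain. A promoter peak overlapped 1 kb on either side of a RefSeq start (either gene end for 4392 coding genes without a tabled start), and the others were distal. Median-centred log2(kb + 0.5) was fitted with limma 3.58.1 (trend) in R 4.3.3, mesothelium minus epithelium, 2 against 2 libraries, and p-values were Benjamini-Hochberg adjusted over all tested domains (threshold 0.05; mean of at least 0.5 kb total or distal, 0.25 kb promoter). Data were simulated for 10480 domains with 2 against 2 libraries, with normal noise at the fitted spread and no floor at 0 kb. The fit recovered 3.61% of log2 changes of 1, 27.8% of 2, 67.3% of 3 and 92.8% of 4, with 5.18% false calls. These rates cannot be carried over to domains that had no peak in a library. An exact permutation test of 2 against 2 cannot go below p = 0.333, so none was used.

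The members and lists were chosen with earlier results of these data known. Named were all members; among the other junction lists, genes with the smallest adjusted p in each direction, or with promoter peaks in both libraries of 1 cell type alone; markers needed for the identity check; neighbouring genes; and the 2 genes nearest to Cldn15 and to Cldn18. Cldn25 was not matched, and Pals1 is tabled as Mpp5, and 1 junction gene is not reported here. Alternatives changed the peak filter, added length, low-value filter, centring, domain flanks, promoter window and libraries.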

Additional observations from a re-analysis of the deposited data

How the results depend on the processing

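The 411 domains called on total length became 0 with peaks of −log10 q of at least 2, 0 with at least 4, 0 with peaks of at least 1 kb, 4 with 0.1 kb added and 206 scaled to covered length, and ranged from 189 to 616 without 1 replicate; the 4 members called became 0 under the first 4 of these settings (with −log10 q of at least 4 no member could be tested), and ranged from 2 to 4 without 1 replicate. Cldn18 and Ocln were called in 13 of 16 alternatives each, Cldn10 in 12 of 16 and Cldn3 in 8 of 16, and Cldn4 passed in 1 of 15 (flanks not cut at neighbours, adjusted p = 0.0395). On promoter length, the 0 domains called became 16 with no filter on low values and 77 with the replicate block, with 1 member, Cldn18, in each, and ranged from 0 to 3 without 1 replicate. On distal length, the 247 domains became 1 with −log10 q of at least 2, 401 with equal peak numbers, 3 with 0.1 kb added, 152 with no filter, 144 scaled to covered length and 522 with the replicate block, and ranged from 0 to 413 without 1 replicate; the 3 members became 0 with −log10 q of at least 2 and with 0.1 kb added, and ranged from 0 to 3 without 1 replicate; Cldn10 also lost its distal call with no filter (adjusted p = 0.0611), scaled to covered length (0.0628) and with a 2 kb promoter window (0.101), and was called in 5 of 12 alternatives. The cause of these shifts was not tested. The correlation of same-numbered deviations was 0.03. It rests on peak lengths alone, so it cannot show whether same-numbered libraries were paired. The replicate block gave 514 calls on total length against 411. Scaling to covered length moved the median promoter difference of all genes to 0.35, against 0.10. The 5 members with promoter peaks in epithelium alone became 2 with −log10 q of at least 2 and 3 with either gene end as the start. With a 2 kb window they became 6, with Cldn10 added. Of coding genes with a tabled start, the share with this pattern was 0.583%, 1.90% and 1.87% in that order, against 1.65% in the reported setting. The 0 members in mesothelium alone became 1, Cldn15, with a 0.5 kb window, where 2.85% of these coding genes had that pattern, against 2.81%. Direction reversed for Marveld2 (total -1.51 to 0.046 over the sets without 1 replicate, positive without epithelium replicate 2; distal 0.53 with −log10 q of at least 2 and -1.14 to 0.85 without 1 replicate, positive at 0.20 without mesothelium replicate 1 and 0.85 without epithelium replicate 2) and for Tjp1 promoter length (-2.57 to 1.05 without 1 replicate, positive at 0.43 without mesothelium replicate 1 and 1.05 without epithelium replicate 2). Cldn7, below the filter otherwise, had a total log2 difference of 0.61 with flanks not cut at neighbours and -0.93 with no filter, neither past the threshold. Of 288 alternative values of single members, 246 kept direction and side of the threshold, 33 lost a call, 3 gained one and 6 reversed direction. The 246 include values of members that were not called in the reported fit. A short or shallow peak can be missed at unknown depth, so a length of 0 kb means no called peak.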

Other observations

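The strongest peak near Cldn15 by deposited enrichment lay outside its domain, in the neighbouring Fis1 gene. In mesothelium replicate 2 it was 2.04 kb wide, from -6.14 to -4.10 kb relative to the Cldn15 start, with a fold enrichment of 6.34 and a −log10 q of 6.65. Mesothelium replicate 1 had a peak of 0.875 kb there, with a fold enrichment of 3.14 and a −log10 q of 1.30, and neither epithelium library had a peak within that interval.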
